A study of Mus musculus with 2 samples.

Results

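The islet macrophages described here were 94 cell barcodes from 2 single-cell RNA-seq libraries of mouse pancreatic islets, 43 from the WT library and 51 from the HFD library. They were selected on their own counts: a barcode had to hold at least 500 genes, at most 20% mitochondrial UMIs (unique molecular identifiers, one per captured RNA molecule), at least 1 UMI in 3 or more of the macrophage genes C1qa, C1qb, C1qc, Cd68, Lyz2 and Adgre1, and less than 40% of its UMIs from the insulin genes Ins1 and Ins2. The WT library held 3895 barcodes, 2600 of which passed the gene and mitochondrial limits, and the HFD library 8951 and 7297. Both groups were 16-week-old male C57/B6 mice without an engineered allele, with islets of 4 mice pooled into each library and dead cells removed before 10x Genomics 3' v3 capture. By the study's methods the WT mice ate standard chow, and the HFD mice received, from 6 weeks of age and during 10 weeks, a feed in which fat supplied 60% of calories. With 1 library per group there was no replicate check and no test was possible: diet, islet preparation and library cannot be told apart, and mice within a pool cannot be separated. Intervals below are exact 95% intervals that cover counting error only.

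Islets carry a resident population of macrophages that sits beside capillaries and touches β cells. In lean mice these cells present antigen on MHC class II, express CD11c (Itgax) and produce the cytokines IL-1β and TNF, and a separate CD206-positive macrophage (Mrc1) is known from the exocrine stroma. In obesity the islet cells are known to expand in number, and growth factors such as PDGF are among their described products.

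The comparison asked which macrophage genes differed between the islets of WT and of HFD mice. Genes of the stress and immediate early programmes (Egr1, Nfkbiz, Btg2, Zfp36, Hspa1a, Dnajb1), the cytokines Tnf and Il1a and the fractalkine receptor Cx3cr1 made up a smaller part of the UMIs of HFD macrophages. The matrix protease Mmp12, the acid phosphatase Acp5 and the lectin Cd207 made up a larger part. The core identity and MHC class II lists had medians close to a ratio of 1. Many of the same immediate early genes were also lower in HFD in the endothelial and β barcodes of these libraries, as set out beside them below.

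For genes that moved together, the 250 bases before the RefSeq start site are shown first, from mouse build GRCm38.p6 and read 5' to 3' on the gene's strand, with matched letters in capitals. Fos and Btg2 stand for the immediate early genes, and the capitals mark the cAMP response element TGACGTCA or its core TGACG. Hspa1a and Hspa1b stand for the heat shock genes, and the capitals mark a pair of inverted heat shock units, GAANNTTC. Mmp12 has 2 RefSeq starts, and the capitals mark the AP-1 site TGANTCA. The windows are chr12:85473640-85473889 on the plus strand, chr1:134079156-134079405 on the minus strand, chr17:34972157-34972406 and chr17:34959239-34959488 on the minus strand, and chr9:7344147-7344396 and chr9:7347124-7347373 on the plus strand.
Fos: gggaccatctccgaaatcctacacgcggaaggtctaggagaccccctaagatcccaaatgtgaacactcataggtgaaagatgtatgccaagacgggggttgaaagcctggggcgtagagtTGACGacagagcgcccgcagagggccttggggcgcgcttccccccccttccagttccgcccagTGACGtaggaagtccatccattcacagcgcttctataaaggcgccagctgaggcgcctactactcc
Btg2: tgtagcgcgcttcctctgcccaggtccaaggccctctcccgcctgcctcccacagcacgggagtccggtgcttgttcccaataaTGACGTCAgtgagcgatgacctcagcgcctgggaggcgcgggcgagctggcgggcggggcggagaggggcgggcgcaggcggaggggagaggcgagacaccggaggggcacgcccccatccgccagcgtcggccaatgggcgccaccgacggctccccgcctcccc
Hspa1a: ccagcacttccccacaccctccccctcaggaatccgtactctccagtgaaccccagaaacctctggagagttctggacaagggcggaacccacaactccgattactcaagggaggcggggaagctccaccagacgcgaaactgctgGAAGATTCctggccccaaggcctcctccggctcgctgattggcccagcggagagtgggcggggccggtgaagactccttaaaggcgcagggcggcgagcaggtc
Hspa1b: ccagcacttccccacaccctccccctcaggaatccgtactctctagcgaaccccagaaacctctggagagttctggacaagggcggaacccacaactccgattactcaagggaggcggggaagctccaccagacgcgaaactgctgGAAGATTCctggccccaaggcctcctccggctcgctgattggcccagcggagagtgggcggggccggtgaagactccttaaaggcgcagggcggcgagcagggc
Mmp12, first start: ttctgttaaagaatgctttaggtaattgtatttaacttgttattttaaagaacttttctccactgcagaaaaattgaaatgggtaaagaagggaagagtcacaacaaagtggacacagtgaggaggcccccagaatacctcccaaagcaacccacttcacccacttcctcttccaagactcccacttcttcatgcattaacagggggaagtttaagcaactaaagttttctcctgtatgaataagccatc
Mmp12, second start: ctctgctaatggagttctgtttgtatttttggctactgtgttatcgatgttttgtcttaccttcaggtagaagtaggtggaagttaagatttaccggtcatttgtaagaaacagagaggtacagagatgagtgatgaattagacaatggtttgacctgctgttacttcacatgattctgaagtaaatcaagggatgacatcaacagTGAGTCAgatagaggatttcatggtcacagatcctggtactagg
Both strands were searched, and every TGACGTCA also holds the core. Of 32851 such windows of mouse genes, 1.55% held TGACGTCA, 17.8% the core TGACG, 6.69% GAANNTTC and 6.75% TGANTCA. Among the 17 immediate early genes with enough UMIs to compare, 15 had a window, 9 of these held the core TGACG and none held TGANTCA. Of the 8 heat shock genes 5 had a window, and 3 held GAANNTTC. A gene was counted when any of its windows held the letters, while the percentages are shares of single windows. Counts of genes and percentages of windows are therefore unlike measures. The Hspa1a and Hspa1b windows had the same base at 247 of 250 positions, and since the transcripts of this pair are also nearly identical, the split of reads between them is uncertain. A match is a description of letters, and occupancy was not measured.

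The macrophage barcodes were 1.65% of passing WT barcodes (interval 1.20 to 2.22) and 0.699% of passing HFD barcodes (0.521 to 0.918). This share counts barcodes of a dissociated islet preparation and depends on how many β cells were recovered, and on the limit of 500 genes. HFD barcodes were shallower in each of 3 classes examined: the median was 2050 UMIs in HFD and 5060 in WT macrophages, 3374 and 6811 in endothelial barcodes, and 12335 and 30282 in β barcodes. Macrophages held a median of 720 genes in HFD and 1330 in WT, with a lowest of 540 and 506. In all, the members carried 113290 UMIs in HFD and 247979 in WT. Mitochondrial UMIs made up a median of 4.06% of a WT member and 3.38% of an HFD member. The β barcodes numbered 1959 in WT and 6334 in HFD, beside 43 and 51 macrophage barcodes. Fewer macrophages, less RNA per macrophage and more β barcodes each lower the macrophage share of passing barcodes, and cannot be told apart.

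The edges of the rule were sparse. Exactly 3 rule genes were seen in 1 WT and 4 HFD members, while 6 WT and 4 HFD barcodes under the insulin limit had 2 and were left out. Members' insulin share ran up to 4.12% in WT and 2.78% in HFD, no barcode with 3 or more rule genes lay between 5% and 40%, and 2 WT and 10 HFD barcodes with 3 or more rule genes were left out at insulin shares from 43.6% upward. The 2 libraries shared 9 barcode sequences, none of them in members.

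A few members stood apart. Of the 43 WT members, 2 held UMIs in all 8 genes of the endothelial list, and they were the deepest of that library at 21996 and 16197 UMIs. One of them carried 114 of the 125 UMIs of Ccl2 and the other 24 of the 32 UMIs of Il12b. In HFD, 1 member of 7128 UMIs held all 8 endothelial genes and 1 of 5288 UMIs held 7 of 10 T cell genes. With 2 more WT members that held 3 or 4 genes of the dendritic cell list, 4 WT and 2 HFD barcodes had UMIs in at least 3 genes of the T cell, B cell, endothelial, fibroblast and stellate, dendritic cell or neutrophil list. Acinar and β cell genes were not used for this, since 38 WT and 45 HFD members held at least 3 acinar genes and 35 and 51 held at least 3 β cell genes. Of the members kept, 1 WT barcode of 5028 UMIs with 3 rule genes carried 172633 CPM of acinar genes, against a WT median of 1222, and 1 HFD barcode of 1857 UMIs with 3 rule genes carried 8078 CPM of monocyte genes. Results below are for all members, and calls that changed in the 39 WT and 49 HFD members left without these 6 mixed barcodes are given beside them. CPM stands for the UMIs of a gene per 1000000 UMIs summed over the members of a library, or of 1 barcode. Genes of mast cells, NK cells and erythroid cells were at 0 in both libraries, and the T cell genes were at 0 in WT.

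Genes that the rule did not use also marked these barcodes as macrophages. The receptor Csf1r, which maintains macrophages, stood at 427 CPM in WT and 388 in HFD, the signalling adaptor Tyrobp at 2282 and 2728, and the cysteine protease Ctss at 4045 and 4158. None of these passed 7 CPM in endothelial or 1 CPM in β barcodes. Of 20 such core genes 17 had at least 10 UMIs, and their median log2 ratio of HFD to WT was -0.09, the same as over all 3625 genes with at least 10 UMIs. Cx3cr1 alone of the 17 was 2-fold or more apart. The transcripts with the most UMIs other than mitochondrial ones were Apoe (41177 CPM in WT and 36155 in HFD), a lipid carrier, Cd74 (39366 and 41672), the chaperone of MHC class II, and the ferritin chain Fth1 (31700 and 40692).

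The rule genes themselves are a description of the selection. C1qb, a chain of the complement starter C1q, stood at 5525 CPM in WT and 4228 in HFD, the lysozyme Lyz2 at 3020 and 3301, and Adgre1 (F4/80) at 226 and 150. C1qa stood at 4686 and 4184 CPM. It was also present in β barcodes, at 43.4 CPM in WT and 50.9 in HFD, where C1qb stayed below 1 CPM. Every WT member had a C1qb UMI, and 2 of the 51 HFD members had none.

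**Figure D1:**
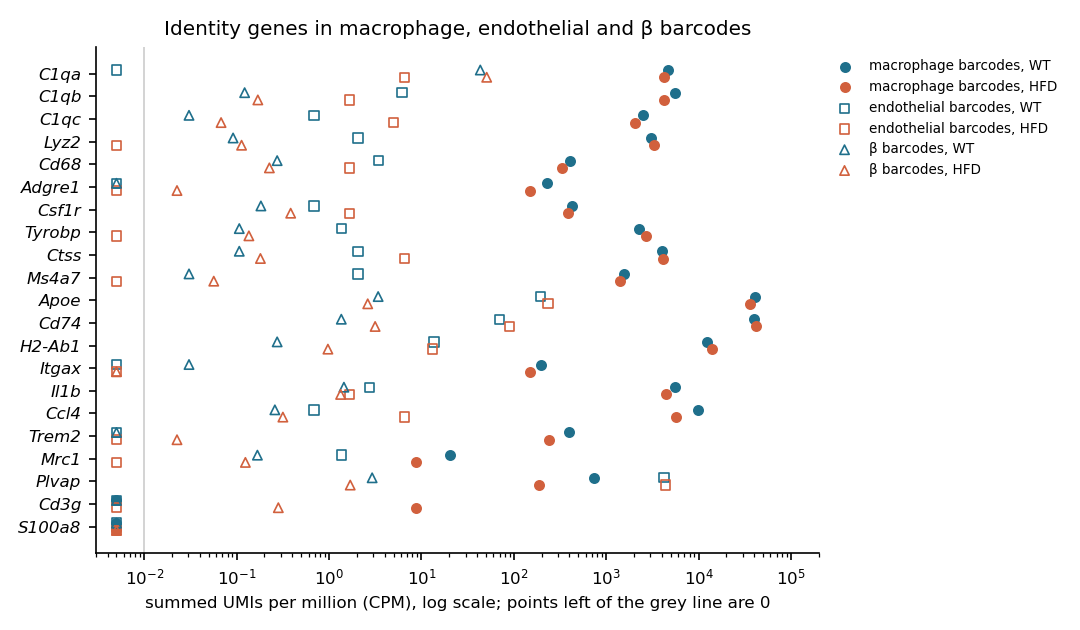
Summed CPM of 21 genes on a log axis in macrophage (filled circles), endothelial (open squares) and β barcodes (open triangles) of the WT (blue) and HFD (orange) libraries, 1 point per class and library. Csf1r, Tyrobp, Cd74 and the other macrophage genes lie far to the right of the endothelial and β points, while Mrc1 stays at 20.2 CPM in WT and 8.83 in HFD, and S100a8 is at 0.

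Genes of the CD11c-type islet macrophage were present in both libraries. Itgax, which encodes CD11c, stood at 198 CPM in WT and 150 in HFD (-0.40, -1.29 to 0.42), and was seen in 24 of 43 and 14 of 51 members. The 10 genes of that list summed to 83459 CPM in WT and 86910 in HFD, with a median log2 ratio of -0.01, and most of that sum came from Cd74 and the MHC class II chains. Its MHC class II members moved little: H2-Ab1 went from 12320 to 14052 CPM (log2 ratio 0.19, interval 0.10 to 0.28) and H2-Eb1 from 12287 to 12296. The costimulatory ligand Cd86 stood at 298 and 556 CPM, a log2 ratio of 0.90 (0.39 to 1.40) that stayed under 2-fold. The list of 13 CD206-type genes summed to 577 CPM in WT and 415 in HFD, below its 765 and 547 CPM in endothelial barcodes. Only Selenop of the 13 reached 10 UMIs, and 7 of the genes in WT and 8 in HFD had no UMI. Among them Folr2, Lyve1, Timd4 and Cd163 were at 0 in both libraries, which over 247979 and 113290 UMIs allows up to 12.1 CPM in WT and 26.5 in HFD. Mrc1 had 5 UMIs in WT and 1 in HFD, and the repair gene Retnla had none.

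Across all genes, a gene was called when its HFD to WT ratio was at least 2 or at most 0.5 and its interval excluded 1. Of 3625 genes, 83 (2.29%) were called higher in HFD and 139 (3.83%) lower. Without the 6 mixed barcodes, 82 of 2810 genes were higher and 73 lower, and the median was -0.01. Of these, 58 higher genes were called in all members too (70.7% of the 82 and 69.9% of the 83), as were 64 lower genes (87.7% of the 73 and 46.0% of the 139). Without the acinar-rich WT member and the monocyte-rich HFD member, 94 genes were higher and 137 lower. Scaling by trimmed mean of M-values (TMM) gave 66 higher and 176 lower. These are differences between 2 libraries and not between replicated conditions.

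The immediate early genes, transcription factors and feedback regulators that cells switch on within minutes of a stimulus, held the largest number of called genes of the lists examined. Of 17 genes, 11 were lower in HFD against the 3.83% of all genes, 16 lay below a ratio of 1, and the median log2 ratio was -1.03 against -0.09 over all genes. In summed level the list stood at 12178 CPM in WT and 5993 in HFD, and per barcode its median was 8788 CPM in WT (0 to 30303) and 4719 in HFD (950 to 15152), so the ranges overlapped. Without the 6 mixed barcodes, 8 of 16 were lower and the median was -1.02.

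Egr1, a zinc finger factor, fell from 871 to 132 CPM (log2 ratio -2.72, -3.58 to -1.96). It was detected in 29 of 43 WT and 9 of 51 HFD members, and in 34.9% (21.0 to 50.9) and 11.8% (4.44 to 23.9) once each barcode was thinned to 1000 UMIs. Thinned in the same way, Egr1 was seen in 73.5% of WT and 27.0% of HFD endothelial barcodes and in 26.0% and 8.20% of β barcodes. The HFD share in macrophages lay near the β level, and what free RNA added to it was not tested. The antiproliferative factor Btg2 went from 629 to 159 CPM (-1.99, -2.78 to -1.28), and Zfp36, which destabilises cytokine mRNAs, from 1105 to 344 CPM (-1.68, -2.21 to -1.19). In the AP-1 family itself Jun (-1.44), Fos (-1.03) and the related Atf3 (-1.04) were called lower. Junb at -0.98 (-1.04 and called without the mixed barcodes) and Fosb at -0.78 stayed within 2-fold, and Jund at -0.04 (-0.36 to 0.27) lay near a ratio of 1. Fos stood at -0.84 and was no longer called without the mixed barcodes. The remaining called genes were Nr4a1 (-1.41), Klf2 (-1.64), Klf4 (-1.27), Ier2 (-1.01) and Ier3 (-1.02), of which Klf2 (-1.12), Ier2 (-0.86) and Ier3 (0.63) lost their call without the mixed barcodes, and Fosl2 at 0.32 was the gene above a ratio of 1.

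The same list was lower in HFD in the other cells of the islet preparation. In endothelial barcodes 10 of the 17 genes were lower and the median log2 ratio was -1.15, against -0.11 over all 9776 genes compared there. In β barcodes 8 of 17 were lower with a median of -0.90, against -0.04 over 14638 genes. The share of all genes called lower was not counted in these classes, so their counts have no baseline here. Fos stood at -2.41 in endothelial, -2.33 in β and -1.03 in macrophage barcodes, Egr1 at -2.00, -1.71 and -2.72, and Btg2 at -1.60, -1.66 and -1.99. Ier3 and Dusp1 differed in sign between classes: Ier3 was 0.82 in endothelial and -0.65 in β barcodes, and Dusp1 0.34 and -2.13. In macrophages Ier3 stood at -1.02 and at 0.63 without the mixed barcodes, and Dusp1 at -0.73. What part handling of the islets before capture had in these values was not tested.

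**Figure D2:**
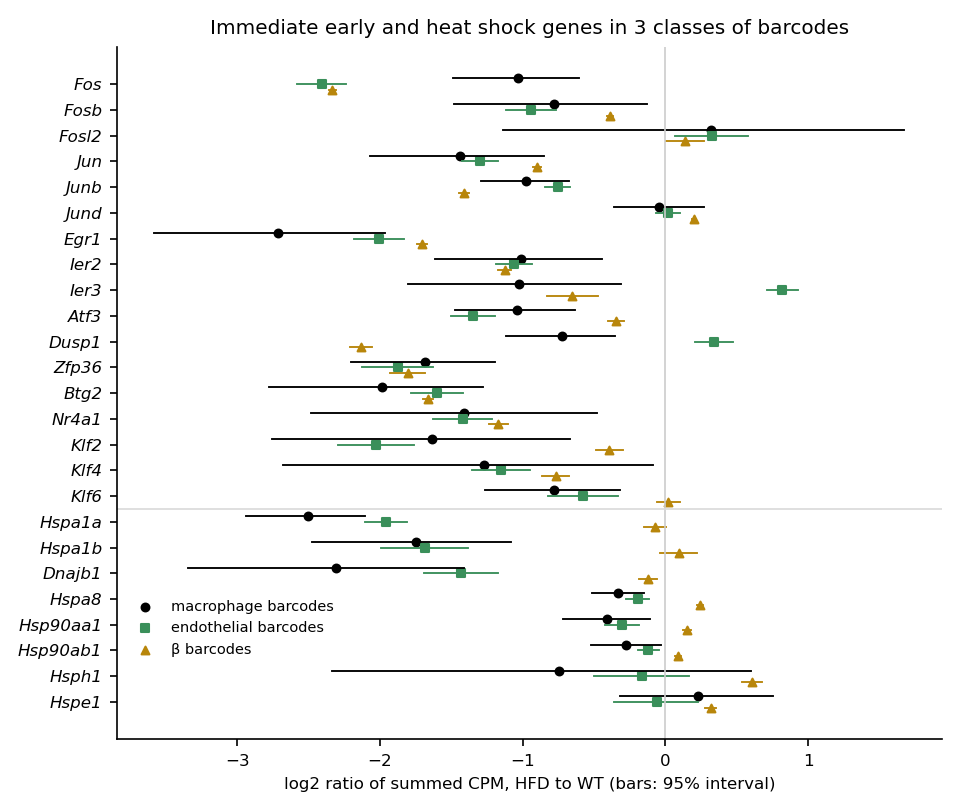
Log2 ratio of HFD to WT summed CPM with 95% interval for 17 immediate early genes (above the grey line) and 8 heat shock genes (below it) in macrophage, endothelial and β barcodes. In all 3 classes 12 of the 17 immediate early genes lie left of 0, whereas Hspa1a, Hspa1b and Dnajb1 lie left of 0 in macrophage and endothelial barcodes and at -0.07, 0.09 and -0.12 in β barcodes.

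Heat shock chaperones followed a different order between classes. Hspa1a, the inducible HSP70, went from 2710 CPM in WT to 477 in HFD macrophages (-2.51, -2.94 to -2.11). Its nearly identical copy Hspa1b went from 621 to 185 CPM (-1.74, -2.48 to -1.08), and the co-chaperone Dnajb1 from 480 to 97.1 CPM (-2.31, -3.35 to -1.41). These 3 of 8 genes were called lower, against 3.83% of all genes. The list median was -0.58 (-0.92 without the mixed barcodes), and the constitutive Hspa8 (-0.33) and Hsp90ab1 (-0.27) were not called. Hspa1a stood at -1.96 in endothelial barcodes and at -0.07 in β barcodes. Hspa1a was seen in 28 WT and 11 HFD members, and the highest single barcode held 20057 CPM in WT and 10244 in HFD.

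Feedback regulators of NF-κB differed among themselves. Nfkbiz, an atypical IκB protein that NF-κB induces, fell from 492 to 61.8 CPM (-2.99, -4.34 to -1.91) and was seen in 35 of 43 WT and 5 of 51 HFD members. After thinning it was seen in 34.9% and 7.84%. The inhibitor Nfkbia stood at 2339 and 1280 CPM (-0.87, -1.14 to -0.60), and the deubiquitinase Tnfaip3 at 266 and 168 CPM (-0.67, -1.49 to 0.09), neither called. The subunit Relb was called higher, from 76.6 to 168 CPM (1.13, 0.13 to 2.13, and 2.08 without the mixed barcodes, but 0.96 and not called without the acinar-rich and monocyte-rich members), and Rel stood at 0.23. Of the 8 genes 1 was higher and 1 lower, against 2.29% and 3.83% of all genes, with a median of -0.43. Without the mixed barcodes Nfkbid was lower too (-1.14, -2.46 to -0.01) and the median was -0.56. In endothelial barcodes Nfkbiz stood at -0.88 and Nfkbia at 0.71. Slfn5, a Schlafen family gene, was also among the lower genes, with 58 UMIs in 10 WT members and 5 in 2 HFD members (-2.41, -4.08 to -1.10).

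**Figure D3:**
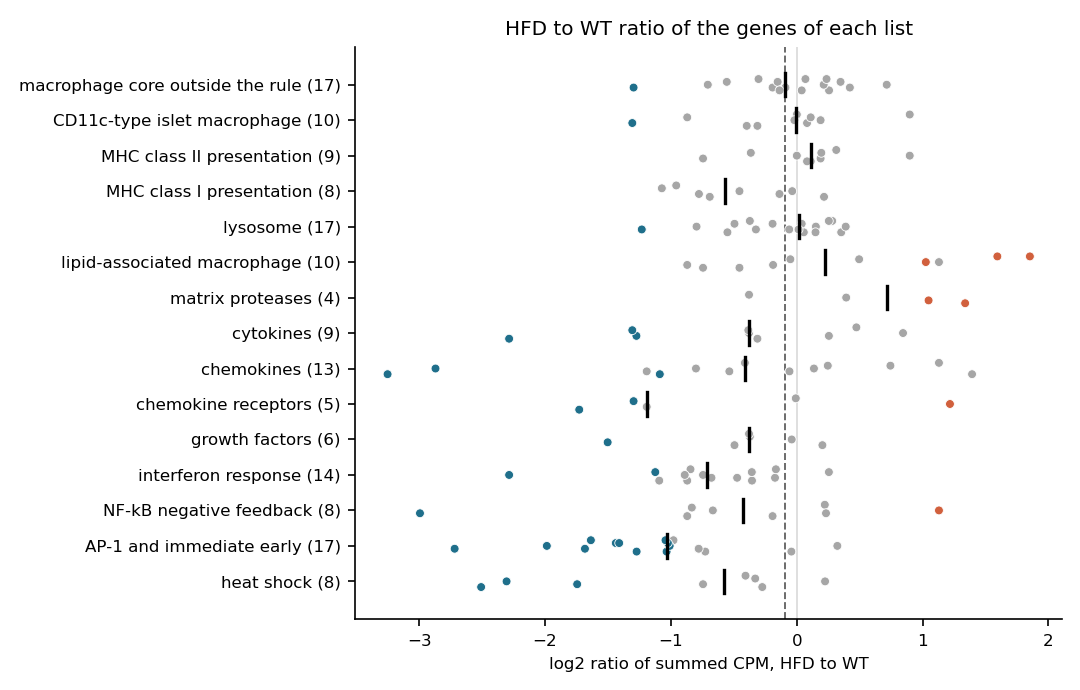
Log2 ratio of HFD to WT summed CPM of each gene with at least 10 UMIs in 15 lists (number of genes in brackets), orange where called higher, blue where called lower and grey otherwise, with the list median as a black bar and the median of all genes as a dashed line. Genes without a UMI in one library are placed at a bound of 3 counts. The immediate early list has its median at -1.03 and 11 blue points.

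Among cytokines the IL-1 and TNF genes that mark islet macrophages were expressed in both libraries. Il1b stood at 5513 CPM in WT and 4440 in HFD (-0.31, -0.46 to -0.16) and was seen in 41 of 43 and 43 of 51 members. Tnf went from 1004 to 406 CPM (-1.31, -1.79 to -0.85), and per barcode its median was 659 CPM in WT and 0 in HFD, with highest values of 7415 and 3257. Tnf was seen in 46.5% (31.2 to 62.3) of WT and 25.5% (14.3 to 39.6) of HFD members after thinning, intervals that overlapped, and in none of 166 WT and 152 HFD endothelial barcodes. Il1a went from 512 to 212 CPM (-1.27, -1.97 to -0.64). The antagonist Il1rn was not called at 157 CPM in WT and 282 in HFD (0.84, 0.12 to 1.56), and Il10 stood at 210 and 291 CPM. Of 9 cytokines 3 were lower and 0 higher, against 3.83% and 2.29% of all genes, with a median of -0.38. The third, Il12b, rested on the endothelial-carrying WT member, and without the mixed barcodes 2 of 8 were lower and the median was -0.08.

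Chemokines were among the most abundant transcripts of these cells. Ccl4, which attracts monocytes and T cells, stood at 9916 CPM in WT and 5693 in HFD (-0.80, -0.93 to -0.67) and Ccl3, its neighbour in function, at 3274 and 2260 (-0.54). Cxcl2, which attracts neutrophils, stood at 7831 and 5888 (-0.41), while Ccl5 stood at 1238 and 2074 (0.74, 0.49 to 0.99). None of the 4 reached 2-fold. Called lower were the interferon-induced Cxcl10, from 1294 to 609 CPM (-1.09, -1.48 to -0.71; -0.94 and not called without the fullest barcode of each library), and Ccl12, from 129 to 17.7 CPM (-2.87, -5.98 to -0.90), with 32 and 2 UMIs. Ccl2, the main attractant of monocytes, was called lower in all members at 504 and 53.0 CPM (-3.25), but without the mixed barcodes its log2 ratio was 1.25 and no call remained. The 13 chemokines had 3 called lower and none higher, against 3.83% and 2.29% of all genes, with a median of -0.41. Without the mixed barcodes 2 were lower and the median was -0.20.

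Of the chemokine receptors, Cx3cr1, the receptor for fractalkine, went from 173 to 70.6 CPM (-1.30, -2.60 to -0.19) and Ccr1 from 117 to 35.3 CPM (-1.73, -3.70 to -0.22). The monocyte receptor Ccr2 stood at 80.7 and 35.3 CPM, a difference within its interval (-3.20 to 0.39). Of 12 monocyte genes, 9 were at 0 in WT and 2 in HFD, and 8 Plac8 UMIs came from 2 HFD members. In sum the list did not differ, at 371 CPM in WT and 353 in HFD (-0.07, -0.64 to 0.48), on 92 and 40 UMIs. The monocyte-rich HFD member alone stood at 8078 CPM of these genes.

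Like Cx3cr1, several other genes known from microglia, the macrophages of the brain, were lower in HFD. Fcrls, an Fc receptor-like gene, had 26 UMIs in 8 WT members and 0 in HFD, at least 3.96-fold lower against a limit of 3 counts. Of these 8 WT members 7 also had Cx3cr1 UMIs, as against 14 of the other 35, and 2 had Mmp12 UMIs, as against 20 of the 35. Among the HFD members 8 had Cx3cr1. Tmem119 (149 and 35.3 CPM, -2.08, -4.03 to -0.60) and Olfml3 (133 and 44.1 CPM, -1.59, -3.31 to -0.23), both chosen after their values were seen, were lower as well. After thinning, Fcrls was seen in 11.6% of WT members (3.89 to 25.1) and in 0 of 51 HFD members, which allows up to 5.88% of members with a UMI at that depth by the limit of 3 counts and does not limit the share that express it.

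Genes higher in HFD were led by Cd207. Langerin, its product, is a lectin of Langerhans cells and some other phagocytes. It had 2 UMIs in 1 WT member and 31 UMIs in 9 HFD members, a log2 ratio of 5.08 with a wide interval of 3.11 to 8.19. After thinning it was seen in 0 of 43 WT members, which allows up to 6.98% of members with a UMI at that depth, and in 13.7% of HFD members (5.70 to 26.3). Of the 9 HFD members with Cd207, 8 had Mmp12 and 2 had Cx3cr1, as against 27 and 6 of the other 42. The median depth of those 9 was 2106 UMIs, against 2003 in the other 42.

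Mmp12, the macrophage elastase whose second start carries the AP-1 letters printed above, rose from 702 to 1774 CPM (1.34, 1.04 to 1.64). It was seen in 22 of 43 WT members and 35 of 51 HFD members although the HFD barcodes were shallower, and after thinning in 37.2% (23.0 to 53.3) and 56.9% (42.2 to 70.7). The per-barcode median was 165 CPM in WT and 546 in HFD, with highest values of 4086 and 18519, so the libraries overlapped. Both the level without the mixed barcodes (1.42) and the level without the barcode of each library with most Mmp12 UMIs (1.35) kept the call, but among members with at least 1000 genes, which left 6 HFD barcodes, it was -2.64. Its relative Mmp13 was called at the edge (1.05, 0.00 to 2.09) and neither without the mixed barcodes nor without the acinar-rich and monocyte-rich members, and the membrane protease Mmp14 stood at 0.39.

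Acp5, the tartrate-resistant phosphatase of osteoclasts and lipid-laden macrophages, rose from 234 to 706 CPM (1.59, 1.09 to 2.11). After thinning it was seen in 18.6% of WT (8.39 to 33.4) and 43.1% of HFD members (29.3 to 57.8), and in none of the endothelial barcodes. Other genes of the lipid-associated macrophage list did not go with it. Trem2, its lipid-sensing receptor, stood at 399 and 238 CPM (-0.74, -1.42 to -0.12), Cd9 at -0.87, Lgals3 at 0.50 and Apoe at -0.19, none called. Plin2, which coats lipid droplets, went from 173 to 353 CPM (1.03, 0.37 to 1.68), just past the limit of 2-fold, and to 0.95 without the mixed barcodes and 0.98 without the acinar-rich and monocyte-rich members, not called in either. Fabp4 owed its call to 1 HFD member that held all 33 of its UMIs and the endothelial genes. Of the 10 genes 3 were higher against 2.29% of all genes, and 1 of 9, Acp5, without the mixed barcodes.

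**Figure D4:**
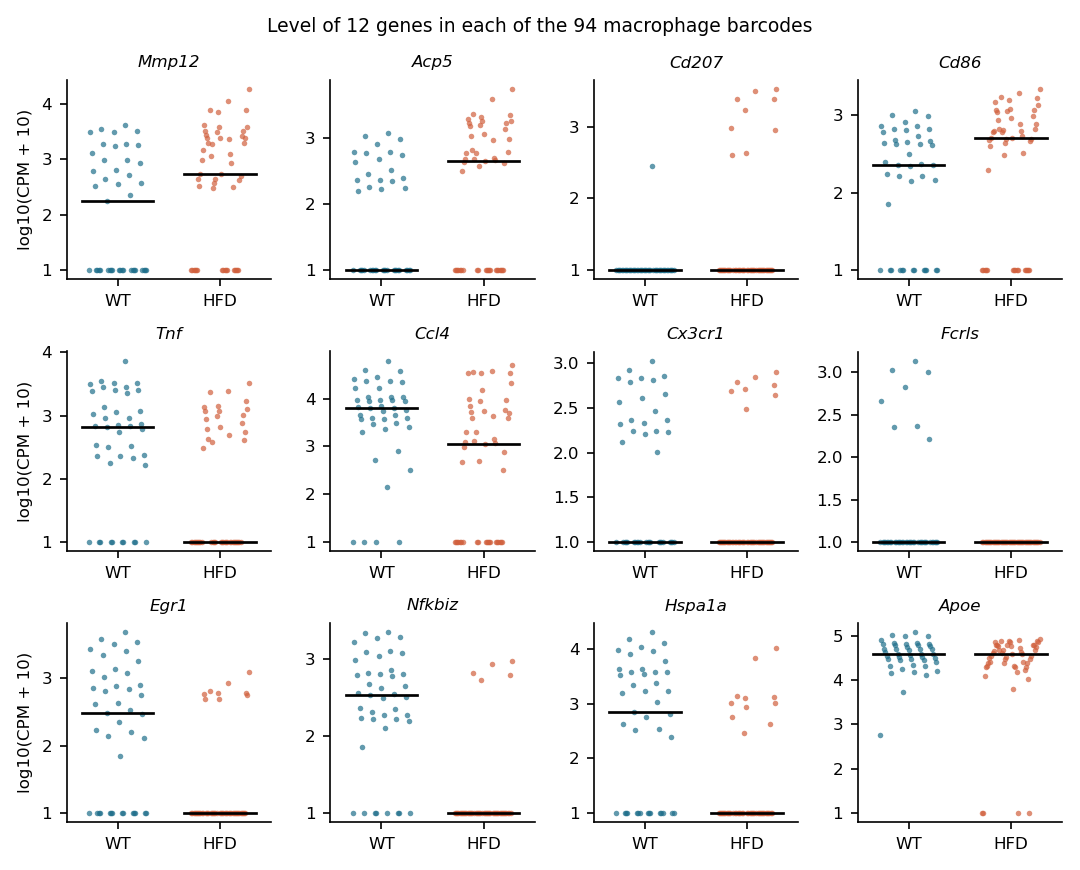
Level of 12 genes in each macrophage barcode of the WT (blue, 43 points) and HFD (orange, 51 points) libraries as log10 of CPM + 10, where the lowest row of points is barcodes with no UMI, and black bars mark medians. Egr1, Nfkbiz and Hspa1a have most HFD points at 0, Mmp12 and Acp5 have a higher HFD median, and Apoe overlaps between the libraries apart from 4 HFD barcodes at 0.

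Gdf15, a stress-induced hormone of the TGF-β family, rose from 177 to 450 CPM (1.34, 0.73 to 1.96), in 11 WT and 15 HFD members, but among members with at least 1000 genes it was -0.68. Hif1a, the oxygen-regulated transcription factor, had 7 and 13 UMIs (2.02, 0.59 to 3.59), and Ahr, the xenobiotic-sensing factor, 3 and 12 (3.13, 1.24 to 5.60). Tmsb10, an actin-binding peptide, stood at 1.45 and the LIM domain gene Limd2 at 1.84. Stmn1, a microtubule regulator of dividing cells, stood at 2.13, but 13 of its 20 HFD UMIs were in 1 barcode, and without the barcode of each library that held most of them it was 1.12 and not called. Tmsb10 was not called without the mixed barcodes (0.95). Of 12 cycling genes, 2 had enough UMIs to compare, Stmn1 and Pcna (0.39). The list summed to 121 CPM in WT and 335 in HFD (1.47, 0.74 to 2.21), on 30 and 38 UMIs. Its highest HFD barcode held 5997 CPM and another 2530, against a highest of 597 in WT. The median barcode held 0 in both libraries, and Mki67 had 3 UMIs in WT and 1 in HFD.

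The trypsinogen genes Try4 and Try5 belong to acinar cells of the exocrine pancreas, and they were higher in HFD in all 3 classes. Over the 10 acinar genes, 5 lay above a ratio of 1 and 5 below with a median of 0.08, and Clps, the cofactor of pancreatic lipase, was called lower (-1.12). The levels turned on the acinar-rich WT member: without it and the monocyte-rich HFD member all 10 were called higher, the median was 1.64 and Clps stood at 2.12. Reads of these similar paralogs may have been split in counting. Of the 2, Try5 stood at 141 CPM in WT and 574 in HFD macrophages, at 9.18 and 88.5 in β barcodes and at 37.0 and 266 in endothelial barcodes. Ins1 and Ins2 together stood at 6730 CPM in WT and 15085 in HFD macrophages, which is 1.11% and 2.64% of their level in β barcodes, and Iapp was 621 and 1968 CPM. Mmp12 and Acp5 stayed at or below 0.1 CPM in β barcodes.

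**Figure D5:**
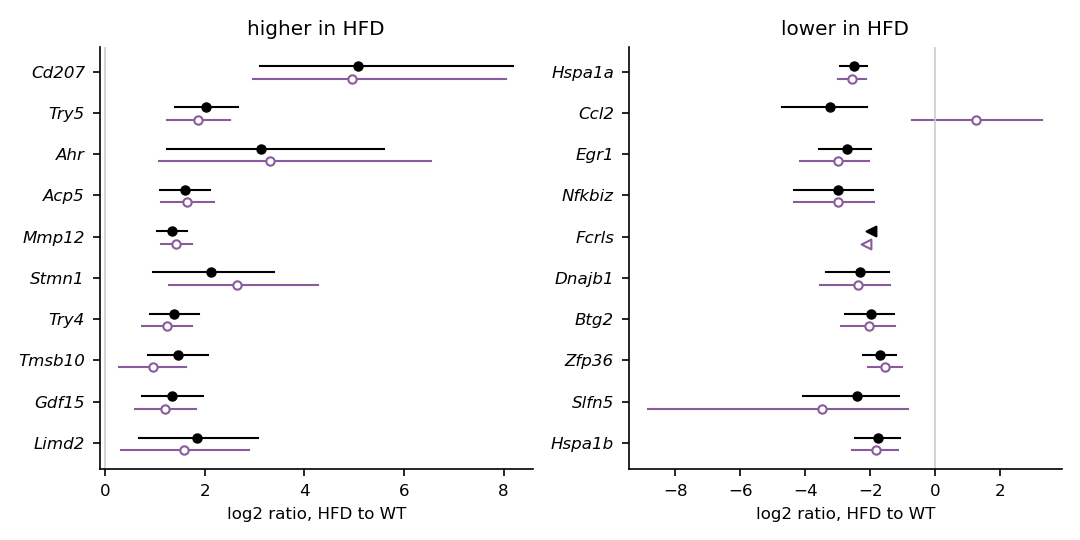
Log2 ratio of HFD to WT for the 10 genes called higher (left) and 10 called lower (right) that the naming rule selected, in all 94 members (black) and in the 88 members without the 6 mixed barcodes (purple, open), with 95% intervals. Triangles are bounds for a gene without a UMI in HFD. Ccl2 changes sign, and the remaining 19 keep theirs.

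Among growth factors 1 gene was called, and among interferon genes 2 were. Pdgfb, a platelet-derived growth factor chain, went from 125 to 44.1 CPM (-1.50, -3.22 to -0.13) on 31 and 5 UMIs. Of 6 growth factors compared it was the 1 called lower, and 0 were higher, against 3.83% and 2.29% of all genes. Vegfa had 4 and 2 UMIs, and Igf1 had 6 in WT and 0 in HFD. Of 14 interferon-induced genes, 13 lay below a ratio of 1 with a median of -0.71, and 2 were called lower, against 3.83% of all genes. These were Oasl2 with 32 and 3 UMIs (-2.28, -4.64 to -0.61) and Ifit3 with 62 and 13 (-1.12, -2.11 to -0.25). Isg15, a ubiquitin-like modifier, stood at 436 and 238 CPM (-0.87). In endothelial barcodes the median of 13 of these genes was -0.34 and in β barcodes -0.60. Without the mixed barcodes Ifit3 was not called (-0.86) and Ifi204 was (-1.03).

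Lysosomal genes gave few calls. Of 17 lysosomal genes the median was 0.01, and the aspartyl protease Ctsd was the 1 called, from 601 to 256 CPM (-1.23, -1.86 to -0.65). The counts of calls in this paragraph stand beside 3.83% of all genes lower and 2.29% higher. Among other cathepsins, Ctsb stood at 0.06 (-0.24 to 0.35), Ctsz at 0.28 (0.02 to 0.54) and Ctsl at -0.80 (-1.72 to 0.04). Of 9 MHC class II genes 0 were called and the median was 0.11. Ciita, their transcriptional activator, had 11 UMIs in WT and 0 in HFD, at least 1.68-fold lower. Of 8 MHC class I genes 0 were called and the median was -0.57, with 7 below a ratio of 1. H2-K1 stood at 0.22, the peptide transporter chain Tap1 at -1.07 (-2.82 to 0.36) and the immunoproteasome subunit Psmb8 at -0.78 (-1.43 to -0.16). The iron stores Fth1 and Ftl1 stood at 0.36 and 0.27. Of 9 glycolysis and hypoxia genes 1, Hif1a, was higher and the median was 0.40, and without the mixed barcodes the glycolytic kinase Pgk1 was higher too (1.49). Complement (4 genes), scavenger receptors (5), cholesterol efflux (5) and ER stress (9) each had 0 called genes, and without the mixed barcodes the stress factor Ddit3 of the ER stress list was called higher (1.34).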

How the data were processed

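The authors deposited UMI counts per gene and barcode, which the submitters' processing notes credit to Cell Ranger 3.0.2 and mm10, and these counts were read as deposited. The members and gene lists were chosen with earlier results of these data known. UMIs were summed over the members of each library and scaled to their total (CPM), and ratios were given exact conditional 95% intervals and shares Clopper-Pearson intervals. Genes needed at least 10 UMIs over both libraries, and a count of 0 was set at 3 counts as a bound. The β barcodes held at least 40% insulin UMIs, the endothelial ones at least 3 of 6 endothelial genes. For shares of barcodes with a UMI, each barcode was thinned to 1000 UMIs, which left out no member. Named genes came from 40 lists or were the 10 called genes per direction whose interval bound lay farthest from a ratio of 1, with at least 100 CPM, at least 2 times the β level, UMIs in 5 members, and 1 direction under each scaling and with insulin under 5%. Mitochondrial and rule genes were left out of the latter, and the insulin limit of 5% left out no member. Doublets were left in: Scrublet (scanpy 1.11.5) called 1 WT and 0 HFD barcodes and was judged not to have worked, so its highest scores were left out as an alternative. Of the alternatives, 13 were planned and 3 added after seeing the data. Python 3.11.15, scipy 1.17.1 and edgeR 4.0.16 (TMM factors only) were used. The calls were tried on simulated summed counts without barcodes. That simulation cannot show how calls behave where a single barcode holds most UMIs of a gene. Promoter windows came from a RefSeq table.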

Additional observations from a re-analysis of the deposited data

How the results depend on the processing

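With 1 library per group, no library could be left out. No paired analysis was possible because the groups share no replicate. The share of barcodes moved to 5.47% in WT and 1.02% in HFD with at most 15000 UMIs per barcode, and in HFD to 0.356% with at least 5 rule genes and 0.0878% with at least 1000 genes. Against 83 genes higher and 139 lower in HFD, 176 and 72 were called with at least 1000 genes per barcode (19 and 21 of them shared), 20 and 54 with at least 50 UMIs per gene (all shared), and 29 and 37 with barcodes thinned to 1000 UMIs (16 and 22 shared), an alternative chosen after seeing the data. They were 122 and 88 with at most 15000 UMIs, 95 and 85 without the highest Scrublet scores, and 82 and 73 without the 6 mixed barcodes. Higher calls outnumbered lower ones in these 3 settings and with at least 1000 genes per barcode. Signs turned for Ccl2 (1.15 and 1.25) and Ier3 (0.96 and 0.63) with at most 15000 UMIs and without the mixed barcodes, and for Plvap (3.70), Flt1 (3.83) and Rgs5 (3.63) with at most 15000 UMIs, where WT held none and the limit of 3 counts stands in. With at least 1000 genes, which left 6 HFD members, they turned for Mmp12 (-2.64), Try4 (-0.15), Gdf15 (-0.68), Fcrls (0.26), Klf2 (0.11), Klf4 (0.43), Plvap (0.081), Flt1 (1.01), Eng (0.26), Rgs5 (0.94) and Tff2 (0.027), with Fcrls and Tff2 at 0 in HFD. Fabp4 turned to -0.19 and Clps to 1.92 with at least 5 rule genes, and Clps to 2.07 without the highest Scrublet scores, to 2.04 without its fullest barcode in each library and to 2.12 without the acinar-rich and monocyte-rich members, both also chosen after seeing the data. The limits of insulin under 5% and of at most 10% mitochondrial UMIs left out no member, so their calls could not differ. Apart from fewer barcodes or genes in some alternatives, the causes were not tested. Depth limits genes under about 100 CPM, where 11 UMIs or fewer stood in HFD.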
